A study of Mus musculus with 8 samples.

Results

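The 8 genes followed here are known from neutrophils: Prtn3, Elane and Mpo of the primary granules, Ngp, Camp and Ltf of the specific granules, and the receptor genes Csf3r and Cxcr2. They are 8 of the 22183 genes in the deposited table, found through their Ensembl identifiers. Prtn3 was selected on its counts, which were far higher in APAP_PBS than in CTRL livers, and the other 7 were put beside it as genes of the same cell type. The comparison of APAP_PBS with CTRL is therefore given for these genes as a description, without a test.

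The study sequenced liver mRNA of C57 mice and asked which genes change after MSC treatment. APAP_MSC livers (3 libraries) came from mice given 400 mg/kg APAP intraperitoneally and then MSCs through the tail vein after 4 hours. APAP_PBS livers (3 libraries) came from mice given the same APAP dose and, by their group name, PBS in place of the cells. CTRL livers (2 libraries) are labelled control, and liver was collected at 24 hours. The treatment text is the same for every sample, so that CTRL mice had no APAP is read from the label alone, and whether they received PBS is not given in the sources used here. APAP is acetaminophen, a painkiller that injures hepatocytes at overdose; MSCs are commonly mesenchymal stem or stromal cells, and their source and dose are not given here. Nothing in the labels says that the libraries of a group come from separate animals, so the p-values speak only for the spread among these libraries, which may be technical. In bulk liver, fewer cells of a type and less RNA per cell cannot be told apart.

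Neutrophils make their granule proteins in sequence while they mature in the bone marrow. The primary (azurophil) granules are filled at the promyelocyte stage with the serine proteases proteinase 3 (Prtn3), neutrophil elastase (Elane) and cathepsin G (Ctsg) and with myeloperoxidase (Mpo). The specific granules follow with lactoferrin (Ltf), the cathelicidin Camp and neutrophilic granule protein (Ngp), and the genes of both sets are largely silent in mature blood neutrophils. Csf3r, the receptor for G-CSF, and Cxcr2, the receptor for CXC chemokines such as that encoded by Cxcl1, remain expressed in the mature cell and serve its survival and its entry into tissue.

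Prtn3 and Elane are neighbours on mouse chromosome 10. In the GENCODE M21 annotation of GRCm38, Prtn3 (ENSMUSG00000057729) spans chr10:79874476-79883174 and Elane (ENSMUSG00000020125) spans chr10:79886247-79888215, both on the plus strand. The 150 bases before the RefSeq start of each gene (GRCm38.p6; chr10:79879517-79879666 for Prtn3 and chr10:79886162-79886311 for Elane, plus strand) are shown because the adjacent genes carry the same 3 short motifs in the same order, although their transcripts differed greatly in level; Mpo (chr11:87793634-87793783, plus strand), also a primary granule gene, is shown for comparison. Capitals mark an ETS-type motif of the kind bound by PU.1 (AGGAAGT), a MYB-type motif (CAACGG) and a TATA-type motif (CTATAA).
Prtn3: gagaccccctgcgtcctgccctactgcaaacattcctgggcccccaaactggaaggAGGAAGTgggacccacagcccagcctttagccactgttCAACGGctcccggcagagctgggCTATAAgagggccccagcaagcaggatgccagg
Elane: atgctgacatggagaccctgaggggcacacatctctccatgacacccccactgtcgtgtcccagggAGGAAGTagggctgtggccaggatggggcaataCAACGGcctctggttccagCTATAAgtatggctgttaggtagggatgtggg
Mpo: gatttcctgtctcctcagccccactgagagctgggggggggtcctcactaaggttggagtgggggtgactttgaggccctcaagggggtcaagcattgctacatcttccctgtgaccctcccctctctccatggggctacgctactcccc
The ETS-type, MYB-type and TATA-type letters began 94, 56 and 33 bases before the start of Prtn3 and 84, 51 and 32 bases before that of Elane, and none of them was in the Mpo window. Over 32851 mouse promoter windows of this length, searched on both strands, 5.07% held AGGAAGT, 2.73% CAACGG and 4.26% CTATAA, and the 3 stood together in 2 windows, those of Prtn3 and Elane. The 3 motifs were chosen after these sequences had been read, so that share is a description only. Neither window held a C/EBP-type TTGCNNAA (5.46% of windows) or a STAT-type TTCNNNGAA (4.09%), which says only that these letters are absent there. The RefSeq starts of all 3 genes lie inside the longer GENCODE genes. The Prtn3 and Mpo windows lie wholly inside them, with the GENCODE start of Mpo at chr11:87793581. The GENCODE start of Elane falls within its window. The windows are thus upstream of the RefSeq starts only.

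Libraries held 16261191 to 24516470 estimated counts. A gene with no count could still have up to 3 counts by counting error alone, which equals 0.117 to 0.214 CPM (counts scaled to library size, with TMM factors throughout). The tissue label was checked against Alb, the albumin gene, which had 54476 to 87868 CPM in all 8 libraries. A member was counted as near the detection limit if its median over the 8 libraries was at most 10 counts or if every library of a group had at most 3. By that rule 6 of the 8 members were near the limit: Elane, Mpo, Ngp, Camp, Ltf and Cxcr2; with a median of 5 counts as the bound, Cxcr2 was not. Prtn3, Ltf, Csf3r and Cxcr2 passed the filter on low counts and were tested among 12722 genes, while Elane, Mpo, Ngp and Camp were not.

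**Figure D1:**
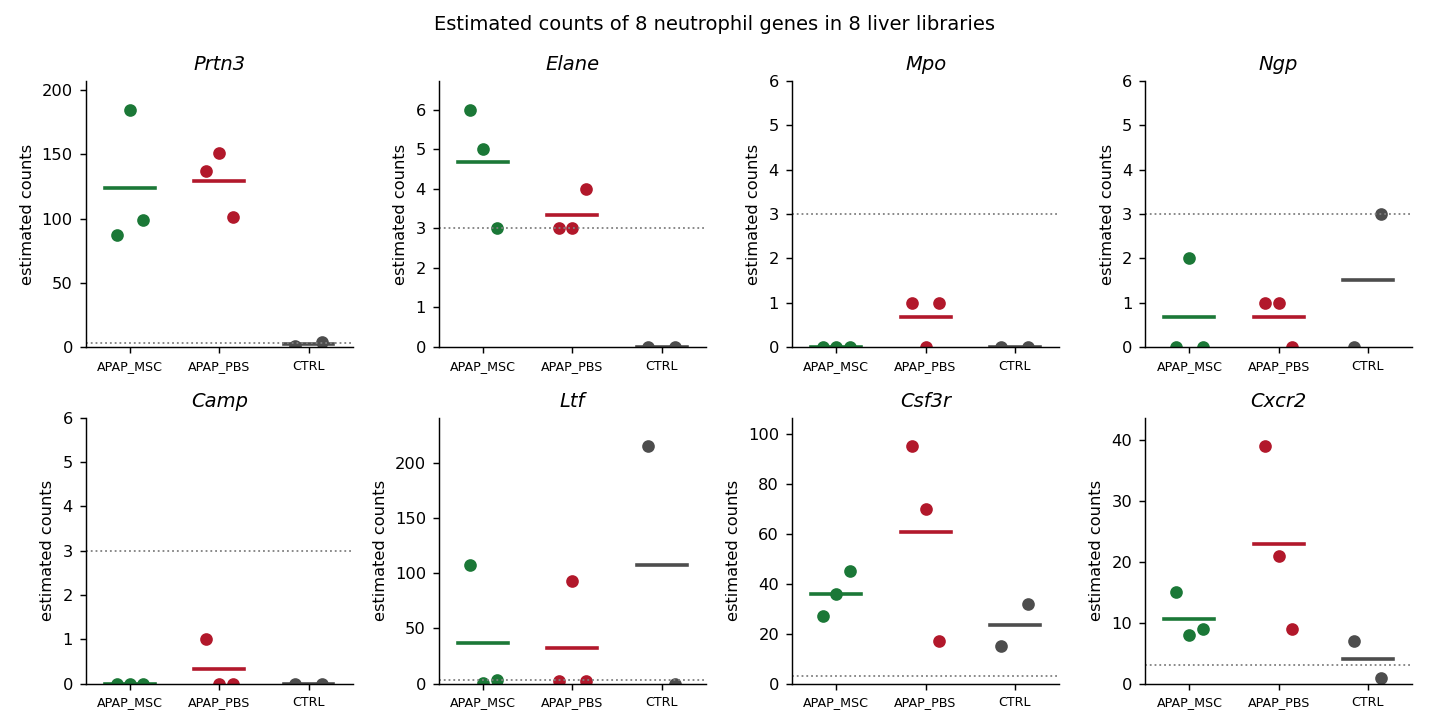
Estimated counts (linear vertical axes, own scale per gene) of the 8 genes in each liver library, with APAP_MSC, APAP_PBS and CTRL from left to right; points are libraries, bars are group means and the dotted line is 3 counts. Prtn3 is at 87 or more counts in all 6 APAP libraries and at 1 and 4 counts in CTRL, while Mpo, Ngp and Camp never exceed 3 counts.

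Of the 6 granule genes, Prtn3 was the one measured well above the limit in every APAP liver. It had 87, 185 and 99 counts in APAP_MSC livers, 137, 151 and 101 counts in APAP_PBS livers, and 1 and 4 counts in CTRL livers. All 6 APAP libraries were above both CTRL libraries, and the lowest of them exceeded the higher CTRL library many times over. Of all 12722 genes, 13% had every APAP library above both CTRL libraries. In CPM, Prtn3 averaged 5.74 ± 2.28 in APAP_MSC livers (SD, n = 3), 6.64 ± 0.975 in APAP_PBS livers (SD, n = 3) and 0.13 ± 0.0826 in CTRL livers (SD, n = 2). Among all genes of a library, 71.8% to 84.1% had a lower FPKM than Prtn3 in the APAP livers, against 39.8% and 46.2% in CTRL livers.

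Against CTRL, Prtn3 was higher in APAP_MSC livers by 5.29 on the log2 scale (SE 0.52, 95% interval 4.15 to 6.43; adjusted p = 3.3e-04 by edgeR's quasi-likelihood test with Benjamini-Hochberg adjustment over all 12722 genes), in 3 of 3 libraries. The ratio of summed counts per effective library size was 40.2 in APAP_MSC over CTRL, with a counting interval of 17.1 to 124.5 that reflects the 5 CTRL counts. Of the 4 members tested, Prtn3 was the 1 that passed, against 5.84% of all tested genes in either direction and 2.52% that were higher. This comparison shares its CTRL libraries with the one that picked Prtn3, so it does not stand apart from that choice. The APAP_PBS livers, given without a test, were 5.50 (SE 0.52) above CTRL on the log2 scale, with a count ratio of 46.6 (counting interval 19.8 to 144.4). In that comparison 10.3% of tested genes passed and 4.29% were higher in APAP_PBS; Prtn3 was selected on this comparison, so nothing is read from its place among them.

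Between the APAP groups no difference in Prtn3 was detectable. The libraries overlapped, with the highest and the lowest of the 6 APAP values both in APAP_MSC. The log2 fold change of APAP_MSC against APAP_PBS was -0.21 (SE 0.27; adjusted p = 0.907 by edgeR's quasi-likelihood test), and its 95% interval ran from -0.81 to 0.39. Without APAP_MSC replicate 3 the value was 0.02, and without APAP_MSC replicate 2 it was -0.58, so the sign rested on single libraries. None of the 4 tested members passed in this comparison, in which 0.00786% of tested genes (1 gene, Cxcl1) did; DESeq2 and limma also passed none of the members, and 842 of all genes had an unadjusted p under 0.05. The APAP_PBS libraries that helped to pick Prtn3 are on one side of it.

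Elane, the protease gene next to Prtn3, had 6, 5 and 3 counts in APAP_MSC livers, 3, 3 and 4 counts in APAP_PBS livers, and 0 and 0 counts in CTRL livers. Counts were thus present in all 6 APAP libraries and in neither CTRL library, at or just above the floor. Of all tested genes, 13% had every APAP library above both CTRL libraries, and 17.8% had every APAP_MSC library above both. Elane was not among the tested genes, so these shares do not describe genes at its low counts. With no filter on low counts the test did not pass for Elane in APAP_MSC against CTRL (adjusted p = 0.13 by edgeR's quasi-likelihood test). Per length, Elane was at 0.124 to 0.375 FPKM in the APAP livers, where Prtn3 was at 4.745 to 11.175 FPKM. Of the summed counts of both genes, Elane held 3.64% in APAP_MSC livers (95% Clopper-Pearson interval 2 to 6.03, n = 385 counts) and 2.51% in APAP_PBS livers (1.21 to 4.56, n = 399 counts). The intervals overlap; in CTRL livers there were only 5 counts, all of Prtn3. No 31-base stretch of the annotated Prtn3 transcripts occurred in those of Elane.

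The rest of the primary granule set was at or near 0. Mpo had 0, 0 and 0 counts in APAP_MSC livers, 1, 0 and 1 in APAP_PBS livers, and 0 and 0 in CTRL livers. Ctsg, Prss57 (a further granule serine protease on the same stretch of chromosome 10), Ms4a3 (a marker of granulocyte and monocyte progenitors) and Bpi (a bactericidal granule protein) had 0 counts in all 8 libraries, which allows up to 0.117 to 0.214 CPM. Of the 7 primary granule genes listed, Prtn3 was the only one to pass the filter on low counts. Genes of mast cells and basophils, which share some granule proteases, were no higher: all 7 listed (Cpa3, Mcpt8, Mcpt4, Tpsb2, Cma1, Fcer1a and Ms4a2) had at most 3 counts in every library. Listed genes of blood progenitors summed to 43 to 46.7 CPM in APAP_MSC livers, 44.1 to 48.2 CPM in APAP_PBS livers, and 29.5 and 50.3 CPM in CTRL livers. Most of that sum was Hlf, which the liver itself expresses, at 29.9 to 35.5 CPM in APAP_MSC livers, 29.5 to 35.1 CPM in APAP_PBS livers, and 19.1 and 39.7 CPM in CTRL livers. Kit, the stem cell factor receptor, had 4.9, 6.71 and 7.05 CPM in APAP_MSC livers, 6.73, 3.85 and 5.21 CPM in APAP_PBS livers, and 6.76 and 5.78 CPM in CTRL livers, with overlap.

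Among the specific granule genes, Camp and Ngp gave almost no counts. Camp had 1 count in 1 APAP_PBS library and 0 in the other 7. Ngp had 0, 2 and 0 counts in APAP_MSC livers, 1, 1 and 0 in APAP_PBS livers, and 0 and 3 in CTRL livers. Neither followed the groups at this depth.

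Ltf differed more within groups than between them. It had 107, 1 and 3 counts in APAP_MSC livers, 2, 93 and 2 counts in APAP_PBS livers, and 215 and 0 counts in CTRL livers. One library of each group was thus high (APAP_MSC replicate 1, APAP_PBS replicate 2 and CTRL replicate 1), and the other 5 were at or under the floor of 3 counts. The log2 fold change was 0.46 (SE 2.32; adjusted p = 0.979) in APAP_MSC against APAP_PBS and -1.89 (SE 2.37; adjusted p = 0.718) in APAP_MSC against CTRL by edgeR's quasi-likelihood test. These values carry no direction: in APAP_PBS against CTRL the value was -2.35 over all libraries and 7.91 without CTRL replicate 1.

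The genes whose pattern lay closest to that of Ltf, chosen after the values were seen, were Duoxa2, Cxcl5, Olfm4, Gabrp, Duox2 and Sftpd. Likeness was the root mean square difference of centred log2 CPM over the 8 libraries, which was 1.06 for Duoxa2, 1.08 for Cxcl5 and 1.10 for Olfm4 among 11208 candidate genes. Duox2, an oxidase of epithelial surfaces that needs the factor encoded by Duoxa2, had 5.02, 0.224 and 1.6 CPM in APAP_MSC livers, 1.02, 3.93 and 1.11 CPM in APAP_PBS livers, and 15.3 and 0.047 CPM in CTRL livers. Sftpd, a surfactant protein gene of epithelia, had 2.57, 0.179 and 0.856 CPM in APAP_MSC livers, 0.961, 3.31 and 1.76 CPM in APAP_PBS livers, and 5.41 and 0.329 CPM in CTRL livers. The same library was highest in each group as for Ltf. In the same libraries 10 neutrophil markers other than Prtn3 and Ltf were summed: Elane, Mpo, Ngp, Camp, Csf3r, Cxcr2, Ly6g, S100a8, S100a9 and Retnlg. They came to 5.6 CPM in APAP_MSC replicate 1, 10.2 CPM in APAP_PBS replicate 2 and 2.92 CPM in CTRL replicate 1. Their part in the Ltf values was not tested.

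**Figure D2:**
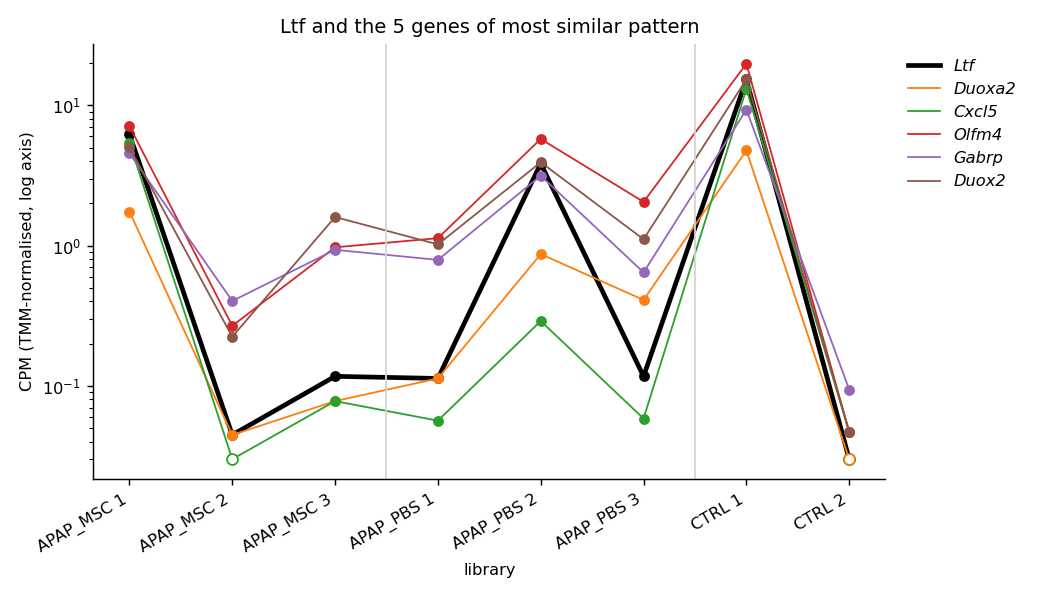
CPM (log axis) of Ltf (black) and the 5 genes of most similar pattern in the 8 libraries, APAP_MSC, then APAP_PBS, then CTRL; open points mark values under 0.03 CPM, drawn at that level. All 6 genes are highest in APAP_MSC replicate 1, APAP_PBS replicate 2 and CTRL replicate 1 within their groups.

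The receptor gene Csf3r was measured in every library. It had 27, 36 and 45 counts in APAP_MSC livers, 95, 70 and 17 counts in APAP_PBS livers, and 15 and 32 counts in CTRL livers. The APAP_MSC libraries lay close together at 1.65 ± 0.0936 CPM (SD, n = 3), while APAP_PBS spread over 3.09 ± 2.19 CPM (SD, n = 3) and CTRL was at 1.29 ± 0.308 CPM (SD, n = 2). APAP_PBS held both the highest and the lowest CPM of all 8 libraries, so it overlapped with both other groups. The log2 fold change was -0.90 (SE 0.48, 95% interval -1.96 to 0.15; adjusted p = 0.774) in APAP_MSC against APAP_PBS and 0.34 (SE 0.57; adjusted p = 0.794) in APAP_MSC against CTRL by edgeR's quasi-likelihood test. Without APAP_PBS replicate 1 the first of these was -0.27, and the second was 0.14 without CTRL replicate 1 and 0.64 without CTRL replicate 2. In APAP_PBS against CTRL, given as a description, Csf3r was 1.24 (SE 0.57) higher on the log2 scale, with 0.61 without APAP_PBS replicate 1 and 1.65 without APAP_PBS replicate 3.

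Cxcr2 followed a similar order at lower counts. It had 15, 8 and 9 counts in APAP_MSC livers, 39, 21.02 and 9 counts in APAP_PBS livers, and 7 and 1 counts in CTRL livers. In CPM all 3 APAP_PBS libraries, at 0.527 to 2.2, were above both CTRL libraries, at 0.498 and 0.047, by a narrow margin at the nearest; 25% of all tested genes did not overlap in that direction. The log2 fold change was -1.21 (SE 0.70, 95% interval -2.75 to 0.32; adjusted p = 0.804) in APAP_MSC against APAP_PBS and 1.06 (SE 0.96; adjusted p = 0.58) in APAP_MSC against CTRL by edgeR's quasi-likelihood test. Single libraries moved both values: the first was -0.46 without APAP_PBS replicate 1 and -1.74 without APAP_MSC replicate 1. The second was 3.29 without CTRL replicate 1, 0.05 without CTRL replicate 2 and 0.53 without APAP_MSC replicate 1. Both receptor genes were highest in APAP_PBS replicate 1.

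That library was also the richest in other myeloid and blood transcripts. The neutrophil markers other than Prtn3 and Ltf summed to 5.6, 4.29 and 3.5 CPM in APAP_MSC livers, 23.9, 10.2 and 5.15 CPM in APAP_PBS livers, and 2.92 and 2.35 CPM in CTRL livers. That sum includes the receptor genes themselves, with Csf3r at 5.37 and Cxcr2 at 2.2 CPM in APAP_PBS replicate 1. The 7 pan-leukocyte genes summed to 45.4 to 59.1 CPM in APAP_MSC livers, 104.5, 59.3 and 59.8 CPM in APAP_PBS livers, and 39.9 and 52.9 CPM in CTRL livers. The 4 hemoglobin genes reached 88.2 CPM in APAP_PBS replicate 1 and at most 37.6 CPM in the other 7 libraries. Prtn3 was highest in APAP_MSC replicate 2, where those neutrophil markers summed to 4.29 CPM. The part of blood in the receptor values was not tested.

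The genes most like Csf3r in pattern were Cd33 (root mean square difference 0.25 in log2 CPM over 8 libraries), Emp1 (0.262), Tlr13 (0.271), Myo1f and Cd300lb (0.291 each) and Slc1a5 (0.301). Cd33, a receptor of myeloid cells, had 1.11, 0.761 and 1.05 CPM in APAP_MSC livers, 3.05, 1.49 and 0.878 CPM in APAP_PBS livers, and 0.712 and 0.987 CPM in CTRL livers. Like Csf3r, each of the 6 was highest in APAP_PBS replicate 1. The genes were chosen after the values were seen.

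**Figure D3:**
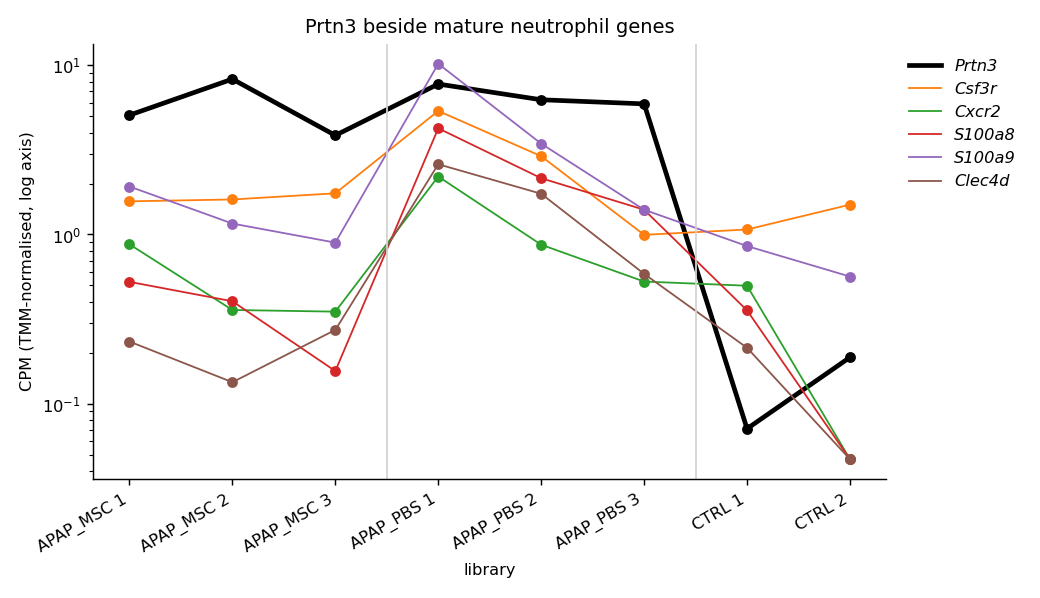
CPM (log axis) of Prtn3 (black) and of 5 genes of mature neutrophils in the 8 libraries, APAP_MSC, then APAP_PBS, then CTRL. Csf3r, Cxcr2, S100a8, S100a9 and Clec4d peak in APAP_PBS replicate 1, whereas Prtn3 lies between 3.85 and 8.28 CPM in all 6 APAP libraries and at 0.0712 and 0.188 CPM in CTRL.

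S100a8, Clec4d and Retnlg, all genes of mature neutrophils, rose in APAP_PBS against CTRL. S100a8, a calcium-binding protein abundant in neutrophil cytoplasm, had 0.525, 0.403 and 0.156 CPM in APAP_MSC livers, 4.24, 2.15 and 1.4 CPM in APAP_PBS livers, and 0.356 and 0.047 CPM in CTRL livers. In APAP_PBS against CTRL it rose by 3.82 on the log2 scale (SE 0.81; adjusted p = 0.015, edgeR). Clec4d, a C-type lectin receptor, rose by 3.75 (SE 0.85; adjusted p = 0.0192, edgeR) and Retnlg, a resistin-like gene of neutrophils, by 3.31 (SE 0.84; adjusted p = 0.0309, edgeR) in that comparison. These calls rested on single libraries: the adjusted p of S100a8 was 0.0501 without APAP_PBS replicate 1 and 0.108 without CTRL replicate 2, that of Clec4d 0.0679 and 0.145, and that of Retnlg 0.108 and 0.196 (edgeR; 0.0825 without CTRL replicate 1). In APAP_MSC against APAP_PBS the groups did not overlap for S100a8 or Clec4d, at log2 fold changes of -2.88 (SE 0.61; adjusted p = 0.378) and -2.91 (SE 0.63; adjusted p = 0.386) by edgeR's quasi-likelihood test, which did not pass. With DESeq2 both passed (adjusted p = 0.006 for S100a8 and 0.033 for Clec4d), so these calls turned with the tool; 7.04% of all tested genes did not overlap in that direction. Ly6g, the usual surface marker of mouse neutrophils, had 1 count in APAP_MSC replicate 1 and 0 in the other 7 libraries.

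Over the listed genes of granules, neutrophil markers, ligands, protease inhibitors, granule protease handling, the NADPH oxidase and granulopoiesis (86 genes without the members, 58 of them tested), 0 were higher and 1 was lower in APAP_MSC against APAP_PBS. The median log2 fold change was -0.33, beside -0.01 over all tested genes. Of all tested genes, 0.00786% passed in APAP_MSC against APAP_PBS, 5.84% in APAP_MSC against CTRL and 10.3% in APAP_PBS against CTRL. In APAP_MSC against CTRL 8 were higher and 2 lower (median 0.29, beside 0.01 over all genes), and in APAP_PBS against CTRL 17 were higher and 2 lower (median 0.79, beside 0.03). The last count was 9 without APAP_PBS replicate 1, 10 without CTRL replicate 1 and 7 without CTRL replicate 2, in both directions together.

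The 1 gene lower in APAP_MSC than in APAP_PBS was Cxcl1, a chemokine that attracts neutrophils through Cxcr2. It had 13.3, 15 and 19.4 CPM in APAP_MSC livers, 43.1, 38.4 and 34.9 CPM in APAP_PBS livers, and 2.56 and 2.96 CPM in CTRL livers, with no overlap between groups. Its log2 fold change of APAP_MSC against APAP_PBS was -1.28 (SE 0.15; adjusted p = 0.034 by edgeR's quasi-likelihood test), and it kept this direction in every alternative. The adjusted p was 0.00174 to 0.115 over the other filters, scalings, block and units within edgeR and limma, 4.5e-09 with DESeq2, and 0.00911 to 0.292 with 1 library left out, over the threshold without any library but APAP_MSC replicate 3.

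Several genes that rose in both APAP groups against CTRL are also made by hepatocytes: Lcn2 and Hp of the specific granule list, Lrg1 of the neutrophil markers, C3 of the ligands and Serpina3n of the protease inhibitors. Lcn2, an iron-carrier-binding protein of specific granules, averaged 542.7 ± 102.2 CPM in APAP_MSC livers, 382.9 ± 26.5 CPM in APAP_PBS livers (SD, n = 3 each) and 7.14 ± 4.71 CPM in CTRL livers (SD, n = 2). That is a log2 fold change of 6.29 (SE 0.45; adjusted p = 3.3e-04) in APAP_MSC and 5.78 (SE 0.44; adjusted p = 3.7e-04) in APAP_PBS against CTRL by edgeR's quasi-likelihood test. Ctsc, the protease that activates Prtn3, Elane and Ctsg proteins, rose by 1.20 in APAP_MSC (SE 0.15; adjusted p = 0.00169, edgeR) and by 1.22 in APAP_PBS (SE 0.15; adjusted p = 0.00105, edgeR) against CTRL. Cd63, a membrane protein of primary granules and lysosomes, rose by 1.67 (SE 0.31; adjusted p = 0.016, edgeR) and 1.69 (SE 0.31; adjusted p = 0.0102, edgeR) in the same comparisons. The Cd63 calls ended without either CTRL library (adjusted p = 0.071 to 0.109, edgeR) and, in APAP_MSC, without its replicate 1 (0.0578). Both genes are widely expressed outside neutrophils.

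Among inhibitors of these proteases, Slpi rose by 3.38 in APAP_PBS against CTRL (SE 0.82; adjusted p = 0.0254, edgeR). Serpinb1b, a relative of the intracellular elastase inhibitor, passed as well (adjusted p = 0.0262, edgeR), with 8, 1 and 24 counts in APAP_MSC livers, 32, 24 and 15 counts in APAP_PBS livers, and 0 and 0 counts in CTRL livers. Both calls ended without APAP_PBS replicate 1 or either CTRL library, and that of Serpinb1b without any 1 of 6 of the 8 libraries (adjusted p = 0.0503 to 0.132, edgeR). Serpina1d, of the alpha-1-antitrypsin family secreted by hepatocytes, was lower in APAP_MSC (-0.52, SE 0.14; adjusted p = 0.0479, edgeR) and in APAP_PBS (-0.67, SE 0.14; adjusted p = 0.0118, edgeR) than in CTRL. The first of these calls ended in most alternatives and the second without APAP_PBS replicate 1 or either CTRL library. The Serpina1 copies are nearly identical, so their estimated counts are uncertain. None of the 6 NADPH oxidase genes passed in any comparison; their medians were -0.29, 0.22 and 0.53 in APAP_MSC against APAP_PBS, APAP_MSC against CTRL and APAP_PBS against CTRL.

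Of the transcription factors that direct granule gene expression, Cebpb, Cebpd, Runx1 and Irf8 were higher and Cebpa lower in APAP_PBS than in CTRL. Log2 fold changes were 1.08 for Cebpb (adjusted p = 0.0149, edgeR), 1.97 for Cebpd (adjusted p = 0.0274, edgeR) and 1.70 for Runx1 (adjusted p = 0.0364, edgeR). Irf8 was at 0.84 (adjusted p = 0.0441, edgeR) and Cebpa at -0.58 (adjusted p = 0.0357, edgeR). Fewer of all listed pathway genes passed in that comparison without APAP_PBS replicate 1 or either CTRL library, so these calls are tentative. None of the 7 tested factors passed in APAP_MSC against either group with edgeR. With DESeq2 Cebpb was lower in APAP_MSC than in APAP_PBS (adjusted p = 0.018). Cebpd had 6.42, 4.38 and 9.85 CPM in APAP_MSC livers, 17.9, 9.11 and 11.5 CPM in APAP_PBS livers, and 2.28 and 4.09 CPM in CTRL livers. These factors act in many liver cells. Gfi1 and Myb, factors of early granulocytes, had at most 4 counts in every library.

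Markers of other cell types (76 genes, 45 tested) gave 0 calls in APAP_MSC against APAP_PBS, where 0.00786% of all tested genes passed. In APAP_MSC against CTRL 1 was higher and 1 lower, where 5.84% of all tested genes passed. In APAP_PBS against CTRL 5 were higher and 2 lower, where 10.3% of all tested genes passed. The 5 were monocyte and macrophage genes, Ccr2, F13a1, Gpnmb, Cd68 and Trem2; their list summed to 120.8 to 151.7 CPM in APAP_MSC livers, 232.3, 130.5 and 162.0 CPM in APAP_PBS livers, and 85 and 126.2 CPM in CTRL livers. No gene of the Kupffer cell list passed in any comparison. The part of these cells in the Prtn3 values was not tested.

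The 6 genes closest to Prtn3 in pattern were Orm2 (root mean square difference 0.665), Trdc (0.726), Gsta1 (0.758), Orm3 (0.856), Abcc12 (0.858) and Rasd1 (0.877), taken from the same 11208 candidates. Orm2 and Orm3 encode acute-phase proteins of hepatocytes, Trdc the constant region of the T-cell receptor delta chain, and Gsta1 a glutathione transferase. Trdc had 86, 58 and 102 counts in APAP_MSC livers, 54, 62 and 100 counts in APAP_PBS livers, and 1 and 0 counts in CTRL livers. Gsta1 had 142.0, 59.7 and 135.7 CPM in APAP_MSC livers, 113.2, 144.7 and 82 CPM in APAP_PBS livers, and 6.55 and 4.37 CPM in CTRL livers. As for Prtn3, all 6 APAP libraries of each were above both CTRL libraries, which the choice of similar genes sets. None is in the granule gene lists. The Orm genes are close copies, so their counts are uncertain.

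**Figure D4:**
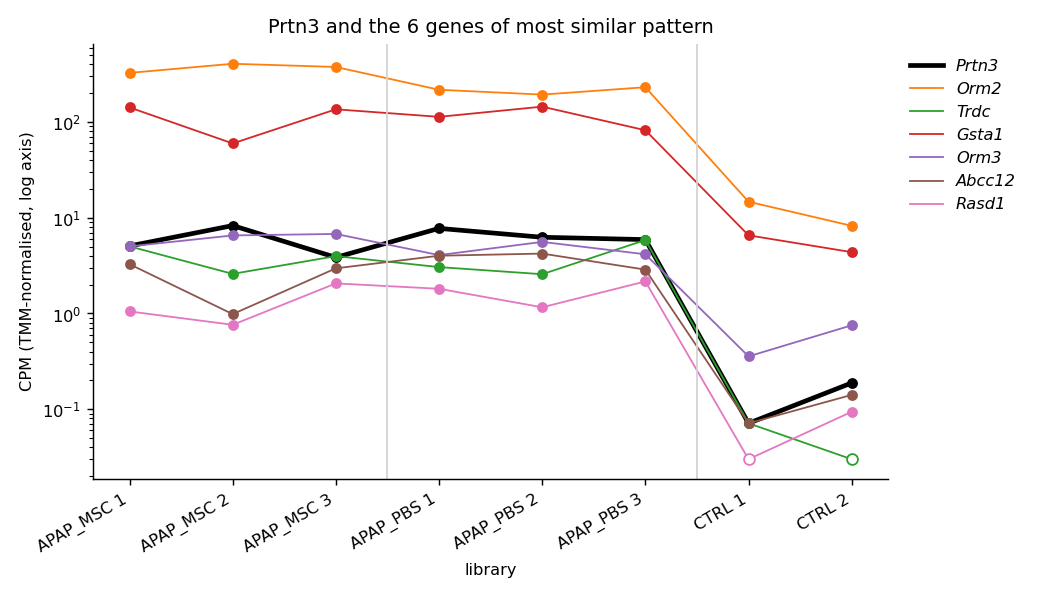
CPM (log axis) of Prtn3 (black) and the 6 genes of most similar pattern in the 8 libraries, APAP_MSC, then APAP_PBS, then CTRL; open points mark values under 0.03 CPM, drawn at that level. All 7 genes are high in the 6 APAP libraries and low in both CTRL libraries.

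On chromosome 10, none of the tested genes around Prtn3 passed in any of the 3 comparisons. Of the 5 genes on each side, 7 of 10 were tested. Ptbp1, an RNA-binding protein gene upstream, was 0.18 (SE 0.14; adjusted p = 0.488, edgeR) above CTRL in APAP_MSC, and Med16, a Mediator subunit gene downstream, 0.26 (SE 0.14; adjusted p = 0.334, edgeR). Cfd, the complement factor D gene beyond Elane, had 0.817, 2.1 and 1.05 CPM in APAP_MSC livers, 0.452, 0.663 and 3.28 CPM in APAP_PBS livers, and 0.712 and 0.376 CPM in CTRL livers. Every APAP_MSC library was above both CTRL libraries, as for 17.8% of all tested genes, and the test did not pass (adjusted p = 0.436, edgeR). APAP_PBS overlapped with both other groups. Plppr3 lies on the opposite strand and overlaps the GENCODE start of Prtn3, and 129 of the 1725 31-base stretches of Prtn3 transcripts occur in it. It had 4, 9 and 8 counts in APAP_MSC livers, 10, 9 and 9 counts in APAP_PBS livers, and 0 and 4 counts in CTRL livers. Strand handling is not given in the sources used here, so reads in that overlap cannot be told apart.

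**Figure D5:**
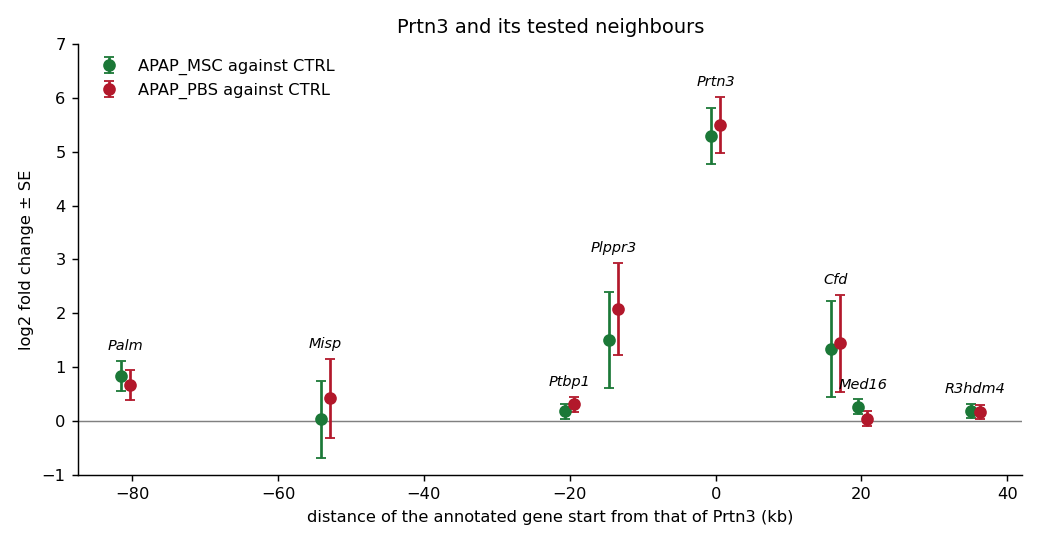
Log2 fold change (vertical axis, bars are SE) of Prtn3 and its 7 tested neighbours in APAP_MSC against CTRL and APAP_PBS against CTRL, by the distance of each annotated gene start from that of Prtn3 in kb. Prtn3 is at 5.29 and 5.50, and the next highest, Plppr3, is at 1.50 and 2.08.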

How the data were processed

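Liver poly(A) mRNA was sequenced in 8 libraries. The authors deposited 1 table of 22183 genes with estimated counts and FPKM (counts scaled to gene length and library size) per library, per the file headers. The submitters' processing notes name fastp 0.18.0. The aligner, quantifier, build and strand setting were not given in the sources used here. Between 6.39% and 7.46% of the deposited estimated counts per library were not whole and were rounded before the tests. FPKM was used for levels between genes and for 2 alternatives.

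Symbols came from GENCODE M21 (GRCm38), which matched 22128 identifiers, and promoters from RefSeq (GRCm38.p6), which held all 8 genes; their builds may differ from the authors' own. Genes were filtered with filterByExpr, scaled with TMM and fitted in R 4.3.3 by the quasi-likelihood method of edgeR 4.0.16 (robust, 1 coefficient per group, all 8 libraries), with Benjamini-Hochberg adjustment over 12722 genes and a threshold of 0.05. limma 3.58.1 and DESeq2 1.42.0 served as alternatives. Standard errors are the log2 fold change divided by the root of F. Intervals of count ratios are exact conditional binomial and those of shares Clopper-Pearson, both 95%; they cover counting error only, since PCR reads without molecular identifiers are not independent molecules.

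The members, gene lists and tests were chosen with earlier results of these data known. Text names the members, the 6 genes most like Prtn3 (candidates had a mean of at least 1 CPM; prior count 2), its 5 neighbours on each side, Cxcl1, and per list up to 4 genes of smallest adjusted p in each of 2 comparisons; genes most like Ltf and Csf3r, and listed genes at or near 0, were added after values were seen. On simulated counts the fit recovered 98% of genes changed 32-fold and 93.6% of those changed 4-fold in APAP_MSC against CTRL (12524 genes). In APAP_MSC against APAP_PBS (12555 genes) it recovered 79.6% of 4-fold and 65.3% of 2-fold changes. The changed genes were drawn at random from all levels that passed the filter, so these shares do not speak for members at low counts. False calls were 13 of 139 in APAP_MSC against CTRL and 10 of 144 in APAP_MSC against APAP_PBS. In APAP_PBS against CTRL (12541 genes) they were 11 of 134. In each comparison the share of false calls was above the threshold set for the adjusted p. Alternatives were other scalings, filters, tools and units, a replicate block, fits of 2 groups only and leaving out each library.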

Additional observations from a re-analysis of the deposited data

How the results depend on the processing

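Prtn3 stayed past the threshold in APAP_MSC against CTRL under every alternative run, at log2 fold changes of 2.90 (limma on log2(FPKM + 1), which understates low genes) to 5.44, and at 4.90 to 6.22 with single libraries left out. The CTRL libraries there also served to select Prtn3, so that result does not stand apart from the choice. In APAP_MSC against APAP_PBS Prtn3 passed under none, at -0.58 to 0.02 with single libraries left out. Members passing numbered 0 and 1 in those comparisons (0 to 0 and 1 to 1 with a library left out). In APAP_PBS against CTRL, on which Prtn3 was selected, 1 to 2 members passed with a library left out, which is given for completeness and supports nothing. Library size alone in place of TMM moved the median of all genes to 0.20 in APAP_MSC and 0.27 in APAP_PBS against CTRL, where Prtn3 was at 5.44 and 5.72.

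Listed pathway genes passing in APAP_MSC against APAP_PBS numbered 1 over all libraries, 4 with DESeq2 (Cxcl1, S100a8, Clec4d and Cebpb, all lower), and 0 with limma on log2(FPKM + 1) or log2(FPKM + 0.1), with the replicate block, and with only the 2 groups compared; with a library left out they numbered 0 to 1, and 1 was kept only without APAP_MSC replicate 3. Cell type genes numbered 0 there, 1 with DESeq2 (Ccr2, lower) and 0 to 0 with a library left out. In APAP_MSC against CTRL pathway genes numbered 7 to 12 with a library left out; cell type genes numbered 2, 6 with DESeq2, 0 with no low-count filter and 0 to 3 with a library left out. In APAP_PBS against CTRL pathway genes numbered 7 to 20 with a library left out; cell type genes numbered 7, 13 with DESeq2 and 0 to 7 with a library left out (4 without APAP_PBS replicate 1, 0 without CTRL replicate 1, 1 without CTRL replicate 2). Beyond fewer samples in the fits that leave some out, the cause was not tested.

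Replicate numbers were checked as pairs: same-numbered APAP_MSC and APAP_PBS libraries had correlations of deviations of -0.00167, -0.0157 and -0.0633, so no pairing showed between those groups. Same-numbered pairs with CTRL were at 0.186 and 0.133 for APAP_MSC and at -0.147 and -0.0293 for APAP_PBS. Each of these has an opposite value of the same size with the other CTRL library, so the CTRL pairs decide nothing. With the replicate block Prtn3 was at -0.27 in APAP_MSC against APAP_PBS and 5.44 in APAP_MSC against CTRL (adjusted p = 5.9e-04, edgeR), and Ltf in APAP_PBS against CTRL was at 0.48. Depth limits Elane, Mpo, Ngp and Camp, whose group differences were not detectable at a few counts.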
